A study of Mus musculus with 16 samples.

Results

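Antigen-binding, memory-phenotype B cells without reporter fluorescence were compared between mice homozygous and mice heterozygous for a reporter allele of Zfp318, an allele under which homozygous cells hold little Zfp318 mRNA. The comparison uses 8 of the 16 RNA sequencing libraries of the series, chosen by labelled genotype and sort gate alone, with 4 libraries per genotype. Heterozygous cells came from Zfp318ZSDAT/+ and homozygous cells from Zfp318ZSDAT/ZSDAT mice, where ZSDAT is the reporter allele and tdTomato its fluorophore. Mice of both groups were C57BL/6 and also carried AID-Cre, a Cre driver active in activated B cells, together with the B1-8hi heavy chain and GFP. All had been immunized with NP-OVA, LPS and alum, and spleen cells were taken 7 days later. The sort took B220+ cells that bound the hapten NIP and expressed CD38, and left out CD138, GL7, FAS, surface IgD and tdTomato. Each library was made from about 1000 cells with Smart-seq2, which copies polyadenylated RNA over its length and does not mark the strand. A homozygous cell carries 2 reporter copies and a heterozygous cell 1, so the tdTomato-negative gate is not matched for reporter dose. The labels give neither the age of the mice nor the exons that the allele removes, and they do not say that the libraries came from separate animals. The p-values therefore measure only the spread between libraries. In the other 8 libraries tdTomato-positive cells of the same genotypes were sequenced. In the fit of all 16 libraries they enter the filter, the scaling and the shared estimate of the spread. Beyond that they are used here only to ask where the genotype difference was unlike in the 2 sorts.

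Zfp318 is a nuclear zinc finger protein that mature B cells need in order to make IgD. IgM and IgD heavy chains are spliced from 1 long primary transcript over Ighm and Ighd, and mature B cells without Zfp318 make little Ighd mRNA. The B1-8 heavy chain is built on the variable segment Ighv1-72 and binds the hapten NP, and its relative NIP, when it pairs with a lambda 1 light chain. Memory B cells keep an antigen receptor, often switched from IgM to IgG, and are commonly told from germinal center cells by CD38 and by lack of GL7 and FAS.

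Total counts were 8099655, 11640994, 15429025 and 11493829 in the heterozygous libraries and 7748787, 8977394, 9312153 and 8558990 in the homozygous ones. Levels are given as CPM, the count of a gene over the TMM-scaled library total as edgeR computes it. CPM compares a gene between libraries, and different genes only where coding length is taken into account. The heterozygous libraries differed much more among themselves than the homozygous ones. Their median pairwise correlation of log2 CPM was 0.766 against 0.96, and the biological coefficient of variation was 1.05 against 0.205. The share of tested genes with no count at all was 11.7% to 13.6% per heterozygous and 1.52% to 1.73% per homozygous library. Each genotype was deposited in a table of its own, and the ratio of counts to deposited mapped reads was 1.345 to 1.445 for heterozygous against 0.3688 to 0.4191 for homozygous libraries. Anything that set these tables apart, such as the counting or the day of preparation, coincides with genotype, and the effects cannot be told apart. As the libraries are bulk samples, fewer cells of a type and less RNA per cell cannot be told apart either.

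The targeted gene followed the labels. Zfp318 (ENSMUSG00000015597, GRCm38 chromosome 17, 46383731 to 46420920) stood at 71.0, 153, 117 and 133 CPM in the heterozygous and at 5.83, 0.468, 1.46 and 2.17 CPM in the homozygous libraries. Every heterozygous library, although sorted as tdTomato-negative, thus held Zfp318 mRNA, and every homozygous library held less than any of them. The log2 fold change, homozygous minus heterozygous here and throughout, was -5.60 (SE 0.54, edgeR adjusted p = 3.6e-06). Genes are called where this Benjamini-Hochberg adjusted p is under 0.05, and "rose" and "fell" are used of called genes only. Unless an exception is stated, each gene said to have risen or fallen also passed in an edgeR fit of the 8 libraries alone, with limma voom and sample weights, and with each of the 8 libraries left out in turn from the 16-library fit. Leaving libraries out of the 8-library fit ended more calls, which are counted in the closing section.

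The heavy chain genes changed most clearly at Ighd. Ighd (GRCm38 chromosome 12, 113406604 to 113416324, minus strand), the IgD constant gene, was at 1030, 817, 820 and 984 CPM in the heterozygous and 44.7, 21.5, 25.3 and 25.5 CPM in the homozygous libraries. The groups were far apart even though the gate had excluded surface IgD in both, and the log2 fold change was -4.97 (SE 0.25, edgeR adjusted p = 5.8e-10). Ighm (chromosome 12, 113418558 to 113422730, minus strand), the IgM constant gene just upstream of Ighd, was at 19400, 13430, 9446 and 10740 CPM against 3022, 2991, 2788 and 2698 CPM. It too fell without overlap, by 2.2 on the log2 scale (SE 0.20, edgeR adjusted p = 1.6e-06).

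Among the switched isotypes Ighg2b, an IgG2 constant gene, rose. It was at 441, 186, 379 and 227 CPM in the heterozygous and 1235, 1463, 1699 and 1461 CPM in the homozygous libraries, a log2 fold change of 2.25 (SE 0.31, edgeR adjusted p = 0.00012). Ighg2c, another IgG2 constant gene, was at 14.7, 25.9, 4732 and 42.7 CPM against 555, 593, 820 and 633 CPM. Heterozygous library 3 stood alone there, and the gene did not pass (log2 fold change -0.89, edgeR adjusted p = 0.782). Without that library the log2 fold change of Ighg2c turned to 4.55 (edgeR adjusted p = 5.1e-05). Ighg1, at 113, 167, 52.5 and 214 CPM against 351, 434, 488 and 481 CPM, was higher in every homozygous library but did not pass in the 16-library fit (log2 fold change 1.68, edgeR adjusted p = 0.246). Reads that the IgG2 genes may share make their single values uncertain. As a share of all heavy chain constant counts, switched isotypes made up 3.43%, 3.84%, 34.2% and 7.17% in the heterozygous and 43.5%, 47.9%, 53.8% and 53.2% in the homozygous libraries. The groups did not overlap, and an exact two-sided permutation test over 4 against 4 libraries gave p = 0.0286, the smallest it can give (0.0381 after adjustment over 20 shares). Ighm made up 91.7%, 90.6%, 60.5% and 85.0% of these counts against 55.7%, 51.7%, 45.8% and 46.4%, with the same exact permutation p-values.

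Light chain usage differed as sharply. Iglc1 (chromosome 16, 19061618 to 19062071), the lambda 1 constant gene, was at 3248, 2810, 2457 and 3094 CPM in the heterozygous and 11020, 10460, 12000 and 10550 CPM in the homozygous libraries. It rose in all 4 libraries beyond the heterozygous range, with a log2 fold change of 1.92 (SE 0.14, edgeR adjusted p = 2.7e-07). Igkc (chromosome 6, 70726435 to 70726966), the only kappa constant gene, was at 8000, 20590, 10880 and 9622 CPM against 1476, 1481, 1277 and 1420 CPM and fell by 3.12 on the log2 scale (SE 0.29, edgeR adjusted p = 2.5e-06). Iglc2 and Iglc3, constant genes of the other lambda chains that share reads with each other, did not pass. Iglc2 was at 11600 CPM in heterozygous library 1 and between 1481 and 2596 CPM in the other 7 libraries.

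Counts per coding length gave the balance of the chains. Lambda constant genes took 67.9%, 22.1%, 36.9% and 44.2% of light chain constant counts in the heterozygous libraries and 91.3%, 90.7%, 92.8% and 91.2% in the homozygous ones. For lambda 1 alone the shares were 13.2%, 10.7%, 14.4% and 18.1% against 65.8%, 66.0%, 68.6% and 66.3%. Both shares separated the groups (exact two-sided permutation p = 0.0286, adjusted 0.0381). Variable segments, which were chosen for description after their values were seen, gave the same order. Iglv1, the variable segment of lambda 1 chains, was at 2542, 1908, 1479 and 1883 CPM against 8964, 9319, 10640 and 9669 CPM.

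The leading heavy chain variable segment was the same in all homozygous libraries and differed among the heterozygous ones. Ighv1-72 (chromosome 12, 115757984 to 115758461), the segment of the B1-8 heavy chain, made up 82.8%, 87.0%, 87.8% and 87.2% of heavy chain variable counts in the homozygous libraries, where it was the leading segment throughout. In the heterozygous libraries the leading segments were Ighv7-3 with 62.1%, Ighv1-42 with 36.8%, Ighv13-2 with 48.0% and, in library 4 only, Ighv1-72 with 19.2%. In libraries 1 to 3 these leading segments were at 1520, 365 and 676 CPM, where Ighv1-72 was at 63.0, 91.7 and 101 CPM. The part of cells with other heavy chains in the remaining differences was not tested. Counts fell on 59, 54, 69 and 61 of 115 heavy chain segments in the heterozygous and on 35, 32, 35 and 38 in the homozygous libraries. Heavy chain variable segments took a mean of 0.153% of counts in the former and 0.0347% in the latter, so these numbers were not taken at equal depth. For kappa segments, of which 101 were in the tables, the order was the reverse, with 69, 71, 73 and 74 against 78, 85, 78 and 78 segments, although they too took more of the heterozygous counts (0.591% against 0.0713%). Ighv1-72 itself, at 63.0, 91.7, 101 and 209 CPM against 225, 302, 405 and 326 CPM, was higher in every homozygous library (log2 fold change 1.44, SE 0.28, edgeR adjusted p = 0.0025), a call lost with voom in the 8 libraries alone. The plot of antigen receptor shares sets the libraries side by side.

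**Figure D1:**
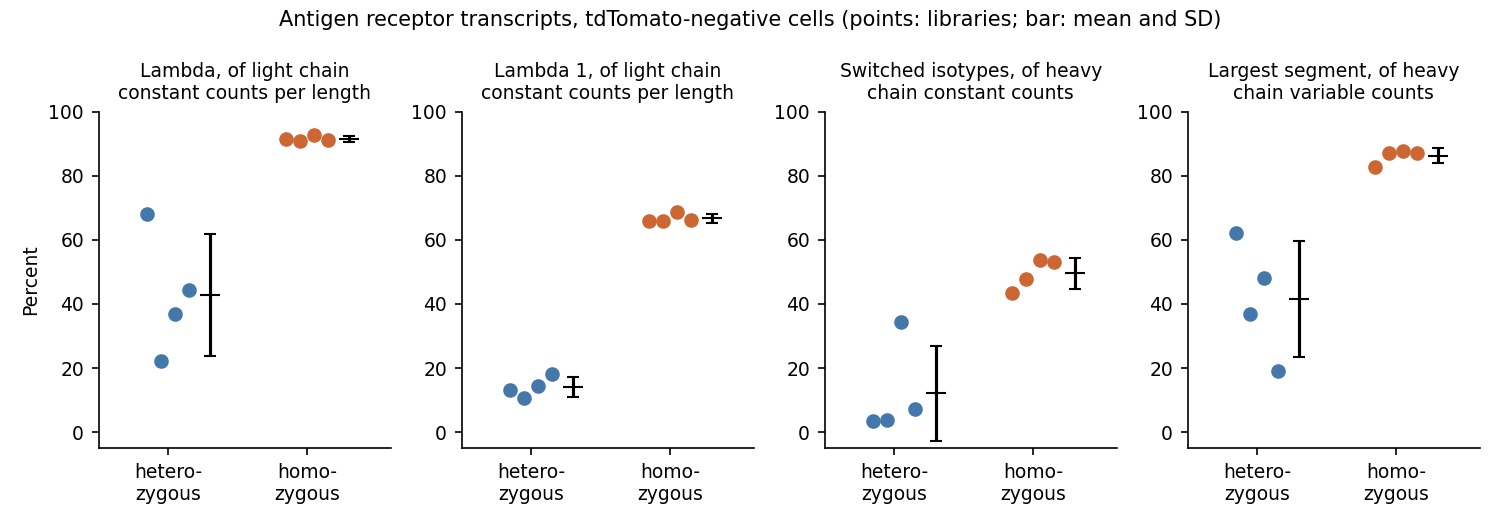
Percent of antigen receptor counts in each tdTomato-negative library, heterozygous (left) and homozygous (right), for lambda and lambda 1 light chains (per coding length), switched isotypes and the leading heavy chain variable segment; points are libraries and the bar gives mean and SD (n = 4). In each panel the 4 homozygous libraries sit above all heterozygous ones, and heterozygous library 3 (34.2% switched) and library 1 (67.9% lambda) lie nearest to them.

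Over all genes, 1121 of 10687 tested (10.5%) were called, of which 600 (5.61%) rose and 521 (4.88%) fell. When the 8 libraries were fitted alone, 724 of 9916 genes (7.3%) were called, 322 (3.25%) higher and 402 (4.05%) lower, and 681 genes were called in both. The groups did not overlap for 2105 genes (19.7%), of which 1341 (12.5%) were higher and 764 (7.15%) lower. Leaving out any of the 4 homozygous libraries left between 608 and 728 calls. The balance of directions moved with the scaling, with 549 higher and 569 lower under RLE and 745 and 429 under upper quartile scaling. With voom, which changes the test and weights the libraries, it was 355 (3.32%) and 470 (4.4%). In these 3 fits together (16 libraries, 8 libraries and voom) 553 genes (5.17%) were called. Of the genes called higher, 121 had no count in any heterozygous library, and these were weak, with a median of 2.53 CPM in homozygous cells. Only 8 of the 121 also passed in both alternative fits. Of the fifth of tested genes with the highest CPM, 294 were called higher and 221 lower (24.1%). That share stands beside lists of abundant genes. The fifth with the lowest CPM gave 137 higher and 11 lower (6.92%). The higher calls among weak genes thus moved with the share of genes without a count, given above, and its part in them was not tested. Coding length moved with the difference too. The median log2 fold change was 0.09 in the fifth of genes with the shortest and -0.24 in the fifth with the longest coding sequence, and after correction for length 399 genes were called higher and 816 lower.

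**Figure D2:**
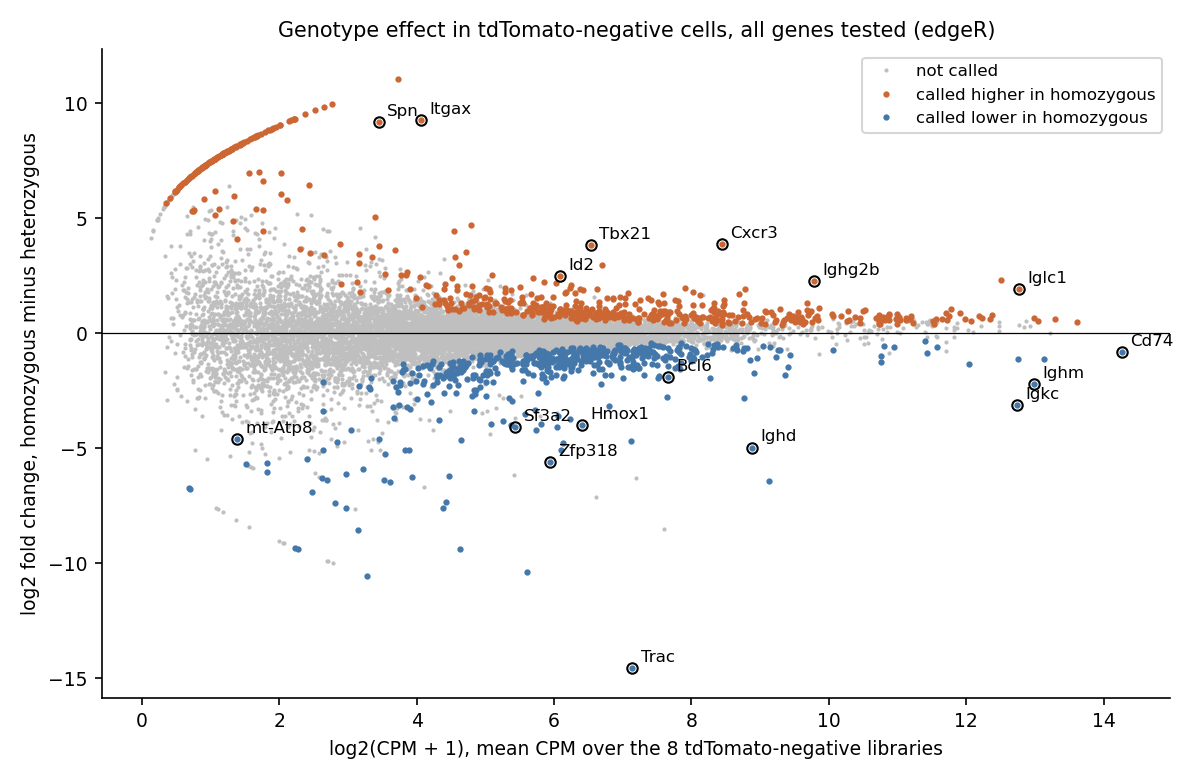
Log2 fold change, homozygous minus heterozygous, of each of the 10687 tested genes against log2(CPM + 1) of the mean CPM over the 8 tdTomato-negative libraries; orange and blue points are genes called higher (600) and lower (521), grey points are not called. Zfp318 (-5.60) and Ighd (-4.97) lie far below the mass of genes, Trac, which had no homozygous count, is drawn at a fitted value that is no measure of its fold, and the curved edge at the upper left holds weak genes with no count in any heterozygous library.

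Ranked by fold among genes whose log2 CPM averaged 5 or more and that passed in the 16-library, the 8-library and the voom fit (all 3 fits) without overlap between the groups, the strongest rises were Cxcr3, Tbx21, Id2, Ahnak, Ighg2b, Naaa, Ackr2, Epb41l2, Itgb1, Gimap7, Ccr6 and Iglc1. Cxcr3, a chemokine receptor that guides cells to interferon-induced chemokines, was at 10.7, 15.5, 79.5 and 69.9 CPM in the heterozygous and 605, 626, 734 and 633 CPM in the homozygous libraries. Its log2 fold change was 3.88 (SE 0.56, edgeR adjusted p = 0.00036). Tbx21, which encodes the transcription factor T-bet, was at 9.58, 14.9, 19.7 and 3.52 CPM against 177, 171, 162 and 179 CPM, a log2 fold change of 3.84 (SE 0.80, edgeR adjusted p = 0.00584). The homozygous libraries were nearly level for both genes, and the lowest of them was more than any heterozygous library. Id2, an inhibitor of E-protein transcription factors, was at 26.8, 25.9, 13.6 and 15.0 CPM against 109, 116, 114 and 116 CPM (log2 fold change 2.49, SE 0.35, edgeR adjusted p = 0.00015). Gimap7, a GTPase of lymphocytes, had a log2 fold change of 1.95, and Ackr2, a decoy receptor for chemokines, of 2.18, a call lost in the 8-library fit without any 1 homozygous library. The scaffold protein Ahnak (2.38, lost likewise and without heterozygous library 3), the lipid amidase Naaa (2.23), the membrane skeleton protein Epb41l2 (2.08) and the integrin chain Itgb1 (1.96) made up the rest.

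The strongest falls by the same rule, after Ighd, were Hmox1, Rnf44, Igkc, mt-Nd6, Jchain, Ighm, Sf3b4, Wbp11, Marcksl1, Nfatc1 and Polr2a. Rnf44, a RING finger protein, was at 145, 206, 110 and 90.1 CPM against 16.1, 9.35, 4.27 and 11.3 CPM, so the groups were well apart (log2 fold change -3.75, SE 0.50, edgeR adjusted p = 0.0001). Nfatc1, a calcium-dependent transcription factor that acts below the B cell receptor, was at 297, 360, 275 and 226 CPM against 93.9, 78.7, 58.5 and 63.7 CPM (log2 fold change -1.97, SE 0.23, edgeR adjusted p = 2.7e-05). Polr2a, the large subunit of RNA polymerase II, was at 327, 629, 464 and 533 CPM against 166, 118, 105 and 112 CPM (log2 fold change -1.96, SE 0.23, edgeR adjusted p = 3.2e-05). Sf3b4 (-2.19) and Wbp11 (-2.12) belong to the splicing machinery, and Marcksl1 (-2.10) binds actin and membranes. Hmox1 (-3.99), heme oxygenase, is a marker of macrophages and is taken up with them.

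**Figure D3:**
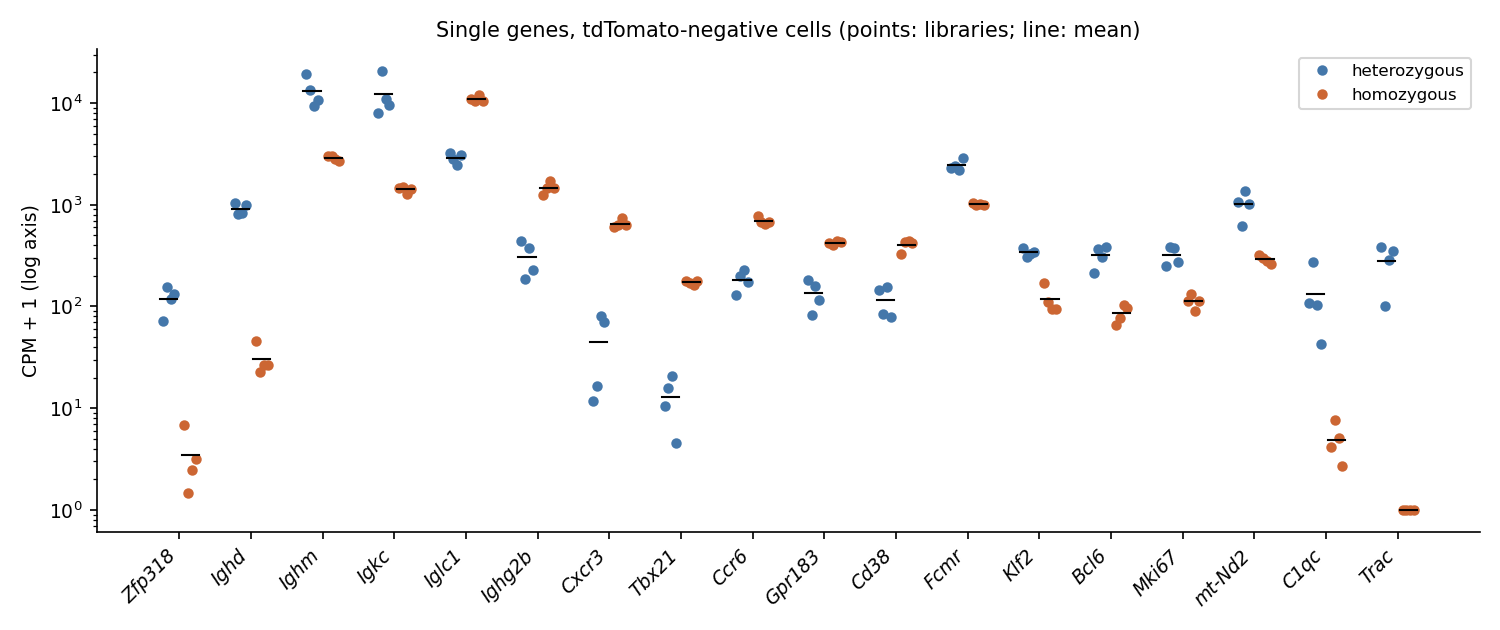
CPM + 1 on a log axis for 18 genes in the 4 heterozygous (blue) and 4 homozygous (orange) tdTomato-negative libraries; points are libraries and lines are means. For all 18 genes the groups do not overlap, and the homozygous points of Cxcr3 (605 to 734 CPM) and Tbx21 (162 to 179 CPM) lie closer together than the heterozygous ones.

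Genes of the T-bet and CD11c program, which marks a B cell subset seen in infection, age and autoimmunity, were higher in homozygous cells. The lists here and below were chosen with earlier results of these data known, so their counts describe the members and are no test. Of 10 tested members 8 rose and none fell, against 5.61% and 4.88% of all genes, with a median log2 fold change of 1.54 against 0.00. Of the 8, 6 passed in all 3 fits, as did 1.91% of all genes higher and 3.27% lower. Zeb2 and Ifngr1 did not pass in the 8-library fit (edgeR adjusted p = 0.0539 and 0.0883), and Ifngr1 also not without heterozygous library 1 or 3 or homozygous library 2, 3 or 4. Itgax, which encodes CD11c, was at 0, 0, 0.131 and 0 CPM in the heterozygous and 39.0, 31.6, 31.2 and 24.3 CPM in the homozygous libraries. By counts that is 2 against 1030, or 732-fold, with an exact 95% interval of 202 to 6060 that covers counting error only. Fcrl5, an Fc receptor-like inhibitor, was at 50.0, 56.4, 69.1 and 72.1 CPM against 208, 202, 216 and 195 CPM and rose by 1.73 on the log2 scale (SE 0.23, edgeR adjusted p = 8.4e-05). Cd72, a coreceptor that restrains B cell receptor signaling, rose by 1.01 (SE 0.12, edgeR adjusted p = 4.2e-05). Cd86 and Tlr7, the other tested members, had values of 0.46 and 0.50 and did not pass. Spn and Cd5, surface markers of B1 cells, had the same pattern as Itgax. Spn had 1 count against 647, or 920-fold, with an interval of 165 to 36400. Cd5 had no count against 179 and was at least 84.9-fold higher against a floor of 3 counts over the group, and its call was lost with voom (adjusted p = 0.081). The other 11 tested genes of marginal zone and B1 cells did not pass, among them Cr2, the complement receptor CD21, with -0.29, and Cd36 with -0.06.

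Receptors that place B cells in the spleen were higher as well. Of 16 tested chemokine, sphingosine phosphate and oxysterol receptors 6 rose and none fell (37.5% called, beside 10.5% of all genes). The median was 0.76, and all 6 passed in all 3 fits. Ccr6, which is used as a marker of memory B cells, was at 128, 198, 225 and 175 CPM against 778, 680, 650 and 670 CPM (log2 fold change 1.93, SE 0.15, edgeR adjusted p = 5.3e-07). Gpr183, or EBI2, which draws B cells to the outer follicle, was at 181, 80.8, 158 and 115 CPM against 421, 404, 440 and 426 CPM (log2 fold change 1.66, SE 0.20, edgeR adjusted p = 4e-05). For neither gene did the groups overlap. Cnr2, a cannabinoid receptor, rose by 1.98 and the follicular receptor Cxcr5 by 0.85. The exit receptor S1pr1 (0.19) and the T zone receptor Ccr7 (0.07) did not pass.

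Adhesion genes followed, with 7 of 18 tested members higher and 1 lower (44.4% called, beside 10.5% of all genes) and a median of 0.68. Of these, 5 higher and none lower held in all 3 fits. Itgb1, the integrin beta 1 chain, was at 16.4, 27.3, 33.8 and 43.8 CPM against 100, 117, 139 and 115 CPM (log2 fold change 1.96, SE 0.26, edgeR adjusted p = 9.8e-05). Cd44, a hyaluronan receptor, had a log2 fold change of 1.45 (edgeR adjusted p = 0.0115), a call lost with voom in the 8 libraries alone. Itga4, the integrin alpha 4 chain that pairs with Itgb1, had 1.14 and was lost with voom (adjusted p = 0.0739).

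Of 24 tested genes of B cell receptor signaling 9 rose and 2 fell (45.8% called, beside 10.5% of all genes). The other 13 did not pass, and the median was 0.24. Of the called members 5 and 2 held in all 3 fits. With single libraries left out between 4 and 9 rose, 4 of them without homozygous library 3. Cd81, a tetraspanin of the B cell coreceptor complex, was at 405, 341, 431 and 457 CPM against 784, 806, 906 and 870 CPM (log2 fold change 1.04, SE 0.12, edgeR adjusted p = 1.9e-05). The lipid phosphatase Inpp5d, or SHIP1, rose by 0.84 and the scaffold Bank1 by 0.68. Dok3, an inhibitory adapter, fell by 0.76 (SE 0.13, edgeR adjusted p = 0.00085). The kinase Fyn had -1.34, a call lost on leaving out heterozygous library 1 or homozygous library 2, 3 or 4. Cd79a, the signal chain that carries every surface immunoglobulin, was at 5056, 4995, 4973 and 7029 CPM against 6174, 5679, 5768 and 5853 CPM, with overlap, and did not pass (log2 fold change 0.09, edgeR adjusted p = 0.753).

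Receptors for antibody split. Fcmr, the Fc receptor for IgM, was at 2323, 2407, 2217 and 2884 CPM against 1046, 999, 1021 and 999 CPM, and fell by 1.27 (SE 0.10, edgeR adjusted p = 6.3e-07). Fcgr2b, the inhibitory IgG receptor, was at 187, 73.3, 266 and 251 CPM against 563, 652, 708 and 600 CPM, and rose by 1.70 (SE 0.27, edgeR adjusted p = 0.00055). In both genes the groups were separate. Of the 13 tested members 3 rose and 3 fell (46.2% called, beside 10.5% of all genes). Fcer1g, a signal chain of myeloid Fc receptors, was among those that fell (-3.94), and myeloid markers moved with it as described below. Receptors for BAFF, APRIL and CD40 ligand gave 3 higher and none lower of 9 (33.3% called). Tnfrsf13b, or TACI, which binds BAFF and APRIL, was at 88.3, 80.7, 65.4 and 90.9 CPM against 214, 228, 219 and 223 CPM (log2 fold change 1.44, SE 0.17, edgeR adjusted p = 2.7e-05). The other called members, Tnfrsf13c (0.72) and Cd40 (0.61), did not hold in the 8-library fit (edgeR adjusted p = 0.0686 and 0.052) or after correction for coding length, and Cd40 was also lost on leaving out heterozygous library 2 or 3 or any homozygous library.

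The Toll-like sensing list gave 4 higher and none lower of 21 tested members (19.0% called, beside 10.5% of all genes), with a median of 0.49. Unc93b1, the chaperone of endosomal Toll-like receptors, was at 1006, 771, 923 and 633 CPM against 1711, 1587, 1578 and 1694 CPM (log2 fold change 0.98, SE 0.16, edgeR adjusted p = 0.00078). Ly86, or MD-1, which pairs with RP105, rose by 0.95. Tlr3, a receptor for double-stranded RNA, was at 0.668, 0.174, 5.35 and 1.54 CPM against 43.7, 43.0, 45.8 and 37.9 CPM (log2 fold change 4.43, SE 1.14, edgeR adjusted p = 0.0182). Tlr9, a receptor for unmethylated DNA, was at 0.223, 2.96, 0.522 and 4.25 CPM against 48.0, 46.5, 60.3 and 51.1 CPM, and lost its call with voom (adjusted p = 0.0672). Neither receptor had overlapping groups.

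Antigen presentation through MHC class II rose in most of its parts and fell in 1. Of 16 tested members 9 rose and 1 fell (62.5% called, beside 10.5% of all genes). The median was 0.50, and 8 and 1 held in all 3 fits. H2-Eb1, a chain of the presenting molecule, was at 5838, 5765, 6638 and 6771 CPM against 10110, 9866, 10200 and 9977 CPM (log2 fold change 0.68, SE 0.09, edgeR adjusted p = 8.3e-05). H2-Aa (0.53) and H2-Ab1 (0.47) rose beside it. The accessory chains H2-Oa (0.93) and H2-Ob (0.58), which hold back peptide loading in B cells, the lysosomal reductase Ifi30 (1.57) and the protease Ctss (0.57) also rose. Cd74, the invariant chain that guards the peptide groove, was at 24310, 21920, 24760 and 29940 CPM against 14670, 13660, 13620 and 14450 CPM and fell by 0.84 (SE 0.10, edgeR adjusted p = 4.8e-05). With Cd74 included, class II genes together took 5.52% of counts in heterozygous and 5.45% in homozygous cells, with overlap (exact two-sided permutation p = 0.8286). Class II genes resemble each other and can share reads. MHC class I gave 2 of 16 higher and none lower, 12.5% called beside 10.5% of all genes. Of these H2-T23, a nonclassical class I gene, rose by 0.79 (SE 0.11, edgeR adjusted p = 0.00013), while B2m (0.27) and H2-K1 (0.23) did not pass.

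**Figure D4:**
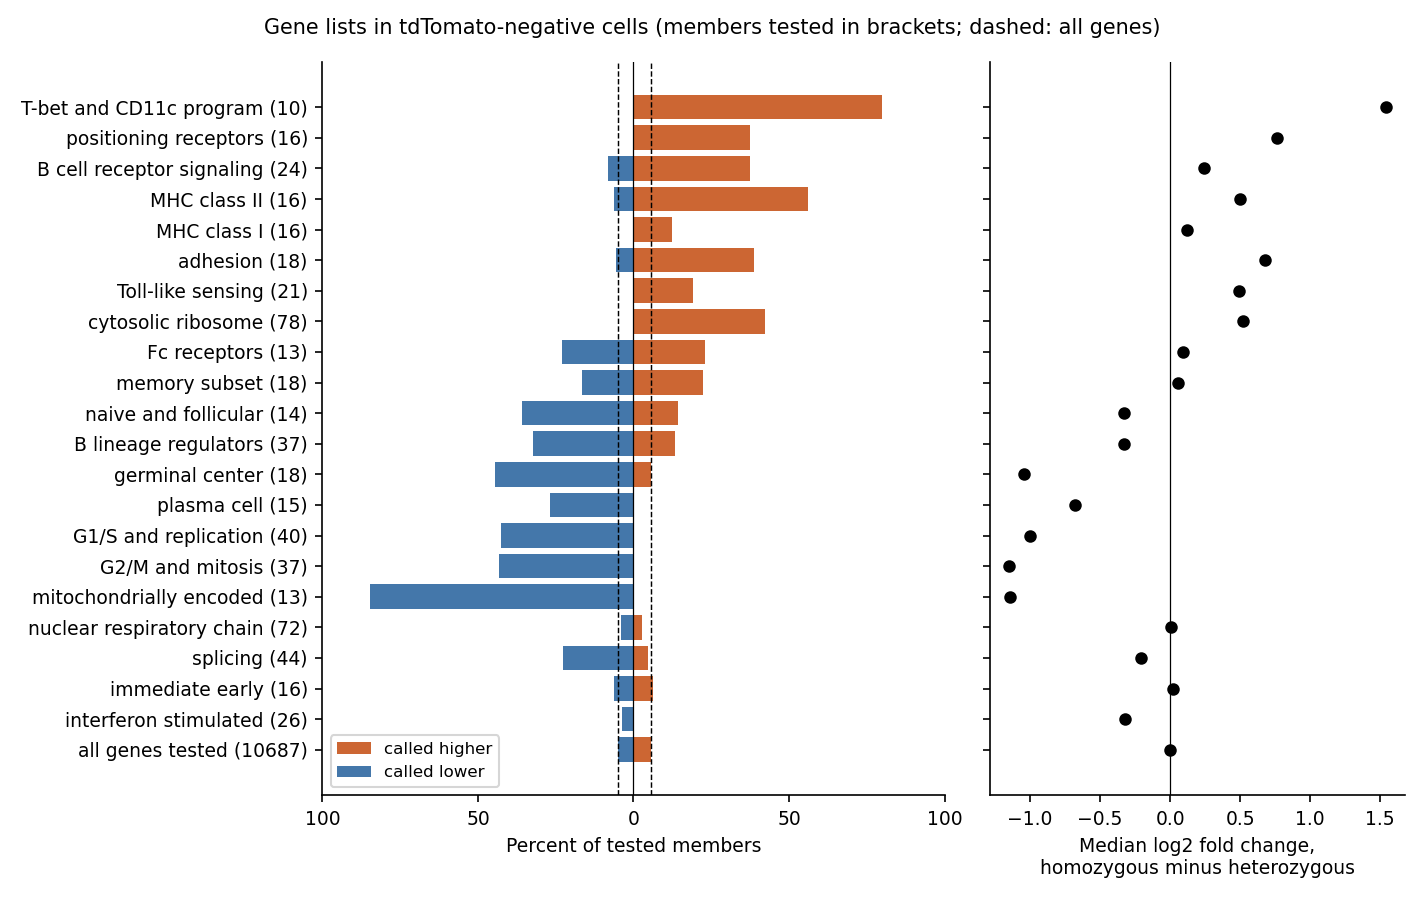
Percent of tested members of each gene list called higher (orange) or lower (blue) in homozygous tdTomato-negative cells (left) and the median log2 fold change of all tested members (right), with the number of tested members in brackets and dashed lines at the shares over all genes (5.61% and 4.88%). By percent called, the T-bet and CD11c list (8 of 10) reaches farthest on the higher side. The mitochondrially encoded list (11 of 13) reaches farthest on the lower side, followed by the germinal center and cell division lists.

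The transcriptional regulators of the B lineage were lower more often than higher. Of 37 tested members 5 rose and 12 fell (45.9% called, beside 10.5% of all genes). The median was -0.33, and 2 and 10 held in all 3 fits. Klf2, which keeps resting lymphocytes quiescent and circulating, was at 378, 308, 326 and 343 CPM against 168, 110, 94.0 and 93.1 CPM (log2 fold change -1.54, SE 0.20, edgeR adjusted p = 8.3e-05). Foxo1, a regulator of early and germinal center B cells, was at 364, 319, 252 and 213 CPM against 92.1, 76.1, 77.4 and 71.7 CPM (log2 fold change -1.86, SE 0.32, edgeR adjusted p = 0.00095). Bach2, a repressor that holds back plasma cell fate, was at 124, 138, 99.2 and 147 CPM against 69.2, 50.1, 43.9 and 53.6 CPM (log2 fold change -1.23, SE 0.23, edgeR adjusted p = 0.00177). In none of these genes did the groups overlap. Tcf3, which encodes the E proteins E12 and E47, fell by 1.53, Satb1 by 1.13 and Foxp1 by 0.62. Pax5, which maintains B cell identity, was at 202, 155, 85.1 and 40.4 CPM against 46.1, 41.7, 29.5 and 41.1 CPM, with overlap, and its log2 fold change of -1.61 was not called without homozygous library 3 (edgeR adjusted p = 0.0556). Other identity genes went the other way, with Ms4a1, or CD20, at 0.98 and Ptprc, or CD45, at 0.74.

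Lists of memory and of naive follicular genes were mixed. Among 18 memory genes 4 rose and 3 fell (38.9% called, beside 10.5% of all genes), with a median of 0.06. Cd38, whose product was used to gate the cells, was at 144, 84.1, 155 and 77.9 CPM against 326, 428, 439 and 418 CPM (log2 fold change 1.81, SE 0.21, edgeR adjusted p = 2.8e-05). Of 14 naive follicular genes (50.0% called) 2 rose, Cxcr5 among them, and 5 fell, Fcmr, Klf2, Foxp1, Bach2 and Satb1. Of 16 immediate early genes Btg2, an antiproliferative factor, rose by 1.56 (SE 0.19, edgeR adjusted p = 4e-05) and Zfp36, which promotes decay of cytokine mRNA, fell by 1.33 (SE 0.19, edgeR adjusted p = 0.00014). Nfkbia, the inhibitor of NF-kappa-B, was at 0.24 and did not pass. Of 26 interferon-stimulated genes none rose and 1 fell, Irf7 (-1.35), which was lost in the 8-library fit (edgeR adjusted p = 0.09) and on leaving out heterozygous library 3 or 4 or any homozygous library. Of 14 BCL2 family genes only Bcl2a1d, a survival factor with close copies in the genome, was called, at 1.74 (SE 0.27, edgeR adjusted p = 0.00036), while Bax (-0.06) was not. Cytokine receptors gave 2 higher and 3 lower of 21 (23.8% called, beside 10.5% of all genes), and 1 and 1 in all 3 fits. The shares called were 12.5% of immediate early, 3.85% of interferon-stimulated and 7.14% of BCL2 family genes.

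Cell division genes were lower in homozygous cells. Replication licensing at G1/S and chromosome segregation at G2/M are largely under transcriptional control, by E2F factors at sites in G1/S promoters and by the DREAM and MuvB complexes through cell cycle homology regions (CHR), and many promoters of both phases also hold CCAAT boxes. Of 40 tested G1/S genes none rose and 17 fell, with a median of -1.0. Of 37 tested G2/M genes none rose and 16 fell, with a median of -1.15. In all 3 fits 13 and 10 of them fell, beside 3.27% of all genes. With single libraries left out between 13 and 20 G1/S and between 8 and 18 G2/M genes fell, 8 of them without homozygous library 3.

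The promoter windows of 5 members that fell in all 3 fits are printed here to show these elements next to the values that follow. Each is the 250 bases before the start of the gene, from RefSeq, build GRCm38.p6, read 5′ to 3′ on the strand of the gene, with exact matches in capitals. The motifs were CCAAT or, on the other strand, ATTGG for the CCAAT box, TTTGAA or TTCAAA for the CHR, and GCGGGAA or TTCCCGC for an E2F site. As spelled, CCAAT and ATTGG, or CCAAT and TTTGAA, can share end letters, but no 2 matches shared a letter in the windows printed. For Mki67, Top2a and Ncapd2 the capitals mark CCAAT boxes and CHR, and for Mcm7 and Rrm1 CCAAT boxes and E2F sites. The 5 were picked because they hold such matches. Mki67 lies at chr7:135716380-135716629, Top2a at chr11:99024190-99024439, Ncapd2 at chr6:125191587-125191836 and Mcm7 at chr5:138171884-138172133, all on the minus strand, and Rrm1 at chr7:102441445-102441694 on the plus strand.
Mki67: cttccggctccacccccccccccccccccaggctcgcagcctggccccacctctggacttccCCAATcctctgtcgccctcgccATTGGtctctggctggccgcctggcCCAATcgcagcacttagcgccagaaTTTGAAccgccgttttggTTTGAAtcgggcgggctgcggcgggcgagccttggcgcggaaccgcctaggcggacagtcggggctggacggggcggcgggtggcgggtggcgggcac
Top2a: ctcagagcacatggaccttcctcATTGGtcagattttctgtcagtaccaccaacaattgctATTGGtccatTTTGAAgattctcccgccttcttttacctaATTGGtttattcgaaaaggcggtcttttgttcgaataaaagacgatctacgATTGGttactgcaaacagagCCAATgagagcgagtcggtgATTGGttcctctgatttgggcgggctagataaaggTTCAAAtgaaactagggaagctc
Ncapd2: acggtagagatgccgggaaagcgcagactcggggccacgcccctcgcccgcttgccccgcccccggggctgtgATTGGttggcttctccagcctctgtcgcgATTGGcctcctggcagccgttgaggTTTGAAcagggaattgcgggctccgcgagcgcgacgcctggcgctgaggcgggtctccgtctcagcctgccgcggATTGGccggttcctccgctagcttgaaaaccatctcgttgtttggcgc
Mcm7: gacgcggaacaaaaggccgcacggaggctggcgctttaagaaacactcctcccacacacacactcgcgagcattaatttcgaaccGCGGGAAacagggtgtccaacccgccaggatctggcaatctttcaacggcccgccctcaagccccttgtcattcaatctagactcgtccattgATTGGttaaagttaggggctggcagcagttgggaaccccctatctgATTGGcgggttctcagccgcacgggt
Rrm1: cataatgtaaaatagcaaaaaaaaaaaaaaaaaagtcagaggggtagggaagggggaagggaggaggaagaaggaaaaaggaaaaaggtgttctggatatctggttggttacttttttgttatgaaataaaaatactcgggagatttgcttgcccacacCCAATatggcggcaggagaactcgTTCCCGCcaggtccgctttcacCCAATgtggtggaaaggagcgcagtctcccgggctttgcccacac

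By gene symbol 32 of 40 G1/S and 32 of 38 G2/M members had a window. A CCAAT box stood in 27 of 32 G2/M and 21 of 32 G1/S windows, against 34.5% of 27025 promoters. A CHR stood in 11 of 32 G2/M and 5 of 32 G1/S windows, against 16.3% of all, and an E2F site in 10 of 32 G1/S and none of 32 G2/M windows, against 3.84%. Among called members the CHR stood in 7 of 14 G2/M and the E2F site in 5 of 15 G1/S windows. A match describes letters in this window and is not shown to be a bound site.

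Mki67, the proliferation antigen Ki-67, whose window holds 3 CCAAT boxes and 2 CHR, was at 248, 387, 375 and 271 CPM against 113, 133, 88.8 and 112 CPM (log2 fold change -1.52, SE 0.28, edgeR adjusted p = 0.00163). Top2a, the topoisomerase of mitotic chromosomes, with 6 CCAAT boxes and 2 CHR, was at 93.3, 252, 183 and 203 CPM against 61.5, 71.8, 78.6 and 55.8 CPM (log2 fold change -1.45, SE 0.30, edgeR adjusted p = 0.00488). Ncapd2, a condensin subunit, was at 173, 143, 75.8 and 95.7 CPM against 59.1, 53.3, 54.5 and 45.9 CPM (log2 fold change -1.20, SE 0.24, edgeR adjusted p = 0.00328). In all 3 genes the groups were separate, and none was near 0 in a homozygous library. Mcm7, a subunit of the replicative helicase, was at 326, 187, 190 and 247 CPM against 113, 115, 98.3 and 122 CPM (log2 fold change -1.08, SE 0.18, edgeR adjusted p = 0.00068). Rrm1, the large subunit of ribonucleotide reductase, was at 206, 152, 134 and 119 CPM against 47.5, 69.3, 74.3 and 65.3 CPM (log2 fold change -1.25, SE 0.23, edgeR adjusted p = 0.00161). These S phase genes were separate too. The helicase subunits Mcm5 (-1.56) and Mcm3 (-1.26) and the sliding clamp Pcna (-1.13) fell with them, as did the mitotic kinases Plk1 (-1.93) and Bub1 (-2.73). Summed over the lists, G1/S genes took 0.393% of counts in heterozygous and 0.205% in homozygous cells, and G2/M genes 0.341% and 0.147%, without overlap (exact two-sided permutation p = 0.0286, adjusted 0.0381). Of 14 G1 cyclins, kinases and their inhibitors only Cdk4 was called, at -0.59 (SE 0.13, edgeR adjusted p = 0.00872).

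Germinal center genes were lower although the sort had excluded GL7 and FAS in both genotypes. Of 18 tested members 8 fell and 1 rose (50.0% called, beside 10.5% of all genes). The median was -1.04, and 6 and 1 held in all 3 fits. Bcl6, the master repressor of germinal center B cells, was at 212, 370, 303 and 385 CPM against 64.5, 76.5, 103 and 95.1 CPM (log2 fold change -1.91, SE 0.21, edgeR adjusted p = 1.9e-05). Mef2b, which activates Bcl6, was at 210, 335, 131 and 203 CPM against 83.9, 62.3, 69.2 and 93.0 CPM (log2 fold change -1.51, SE 0.25, edgeR adjusted p = 0.00074). Both were lower in every homozygous library than in any heterozygous one. Gcsam fell by 2.05, Eaf2 by 1.78, the histone methyltransferase Ezh2 by 1.07 and the DNA glycosylase Neil1 by 1.06. Since Ezh2 and others of this list rise in dividing cells, the list is not separate from cell division.

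Plasma cell genes were lower in part. Of 15 tested members none rose and 4 fell (26.7% called, beside 10.5% of all genes). The median was -0.68, and 3 held in all 3 fits. Jchain, the joining chain of secreted IgM and IgA, was at 365, 206, 637 and 182 CPM against 17.1, 28.8, 98.5 and 57.2 CPM (log2 fold change -2.78, SE 0.47, edgeR adjusted p = 0.0009), a call lost with voom in the 8 libraries alone. The elongation factor Ell2, which favours secreted heavy chain mRNA, fell by 2.01, and the degradation factor Edem1 by 1.24. Mzb1, a chaperone of IgM assembly, was at 999, 751, 1291 and 1075 CPM against 1085, 993, 1050 and 1100 CPM and did not pass (0.04, edgeR adjusted p = 0.92), nor did Xbp1 (-0.37, edgeR adjusted p = 0.407).

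Mitochondrially encoded transcripts were lower as a group. Of 13 tested genes 11 fell and none rose (84.6% called, beside 10.5% of all genes). The median was -1.14, and 9 held in all 3 fits. mt-Nd2, a subunit of respiratory complex I, was at 1058, 613, 1370 and 1021 CPM against 317, 296, 281 and 261 CPM (log2 fold change -1.81, SE 0.24, edgeR adjusted p = 8.1e-05). mt-Nd1, another of its subunits, was at 6011, 4293, 7247 and 6578 CPM against 2197, 2454, 2538 and 2345 CPM (log2 fold change -1.34, SE 0.18, edgeR adjusted p = 0.0001). Both were separate between the groups, as were mt-Cytb of complex III (-1.14) and mt-Co1 of complex IV (-1.14). mt-Nd6, encoded on the other strand of the mitochondrial genome, had the lowest value among members that passed in all 3 fits, -2.83 (SE 0.29, edgeR adjusted p = 6.7e-06), and without strand its reads cannot be told from transcripts of the opposite strand. Mitochondrial genes also have nuclear copies that can share reads. All 13 together took 3.74%, 2.65%, 4.26% and 3.83% of counts in the heterozygous and 1.44%, 1.56%, 1.61% and 1.47% in the homozygous libraries (exact two-sided permutation p = 0.0286, adjusted 0.0381). Of 72 nuclear genes of the respiratory chain 2 rose and 3 fell (6.94% called). The median was 0.01, and none held in all 3 fits. After correction for coding length the nuclear genes gave 2 higher and 18 lower, and the mitochondrial ones still gave 11 lower.

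Cytosolic ribosomal protein genes were higher. Of 78 tested members 33 rose and none fell (42.3% called, beside 10.5% of all genes), with a median of 0.52. The count depended on the fit, with 5 in the 8-library fit, 41 with voom (which called 7.72% of all genes), 51 with upper quartile scaling and between 13 and 45 with single libraries left out, 13 of them without homozygous library 1. Rpl24 was at 627, 1286, 989 and 1057 CPM against 2091, 2024, 1890 and 1852 CPM (log2 fold change 0.99, SE 0.16, edgeR adjusted p = 0.00061), and Rpl37a and Rpl10a rose by 1.03 and 0.66. Together these genes took 12.4%, 20.6%, 18.7% and 19.9% of counts in the heterozygous and 25.5%, 24.0%, 22.9% and 22.4% in the homozygous libraries, without overlap (exact two-sided permutation p = 0.0286, adjusted 0.0381). Their coding sequences are short, and length moved with the difference as given above. After correction for length 31 rose and 1 fell. Of 31 factors that build ribosomes none rose and 3 fell, with a median of -0.14, a share called no larger than the 10.5% of all genes. Fbl, the methylase of ribosomal RNA, fell by 0.99 (SE 0.19, edgeR adjusted p = 0.00278), Pa2g4 by 0.75, and the abundant Npm1 (-0.17) and Ncl (-0.04) did not pass.

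Splicing factors were mostly level or lower. Of 44 tested members 2 rose and 10 fell, with a median of -0.21, and 1 and 7 held in all 3 fits. The share called was 27.3%, beside 10.5% of all genes and 24.1% of the fifth with the highest CPM. Without homozygous library 1, 3 or 4 the number that fell was 6. Sf3a2, a subunit of the U2 particle, was at 97.2, 90.5, 77.2 and 54.5 CPM against 8.05, 2.81, 4.05 and 4.09 CPM (log2 fold change -4.08, SE 0.40, edgeR adjusted p = 3.8e-06). Hnrnpl, a regulator of CD45 splicing, was at 91.9, 119, 148 and 82.1 CPM against 40.5, 25.3, 25.2 and 28.9 CPM (log2 fold change -1.88, SE 0.23, edgeR adjusted p = 5.3e-05). Groups were separate for both genes. Prpf8, the core of the spliceosome, fell by 0.85, while Srsf11 rose by 0.72 and the abundant Sf3b1 (0.15) did not pass. Among other housekeeping lists, glycolysis and cholesterol synthesis were called no more often than all genes, and chaperones more often. Called were 10.0% of glycolysis, 5.88% of cholesterol synthesis and 21.4% of chaperone members, beside 10.5% of all genes. Glycolysis gave 1 of 20 higher and 1 lower, cholesterol synthesis only Sqle (-1.82, SE 0.39, edgeR adjusted p = 0.00574) of 17, and chaperones 1 of 14 higher and 2 lower, among them Hsp90ab1 (-0.61, SE 0.10, edgeR adjusted p = 0.00057).

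Markers of other cell types were checked, since the libraries are bulk samples. The B cell genes Cd79a and Ms4a1 were each at 839 CPM or more in all 8 libraries. Of 15 tested macrophage markers none rose and 8 fell, with a median of -3.94, and their summed level was 497 to 1428 CPM in the heterozygous and 78.3 to 117 CPM in the homozygous libraries. C1qc, a complement chain made by macrophages, was at 108, 273, 102 and 41.6 CPM against 3.19, 6.66, 4.05 and 1.69 CPM (log2 fold change -5.07, SE 0.66, edgeR adjusted p = 7.8e-05). Hmox1 was at 151, 235, 199 and 47.5 CPM against 12.5, 9.23, 7.65 and 10.5 CPM (log2 fold change -3.99, SE 0.56, edgeR adjusted p = 0.00018), and Vcam1 fell by 4.65. Adgre1, or F4/80, a defining macrophage gene, was at 19.5, 17.3, 11.3 and 0 CPM against 45.4, 44.5, 46.7 and 33.4 CPM and did not pass (1.82, edgeR adjusted p = 0.307). Vsig4 had no count in any of the 8 libraries. The part of such cells or their RNA in the other differences was not tested.

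Of 18 T cell markers 9 could be tested, of which 1 rose and 3 fell, with a median of -3.77. No count was found for 4 of the 18 in the heterozygous and for 11 in the homozygous libraries. Trac, the constant gene of the T cell receptor alpha chain, was at 380, 101, 284 and 354 CPM in the heterozygous libraries and had no count in any homozygous one, which makes it at least 3010-fold lower. Trbc2, of the beta chain, was at 49.3, 49.5, 43.0 and 21.7 CPM against 0, 0, 0 and 0.964 CPM. Of the defining T cell genes, Cd4 and Bcl11b had no count in any of the 8 libraries, and Cd3e was at 2.34, 5.74, 0 and 0.181 CPM in the heterozygous and at 0 in all homozygous libraries. The part of T cells or their RNA in these values was not tested. Summed T cell markers, which include Cd2 and Lck that B cells can also express, took 0.0535% to 0.0835% of counts against 0.0543% to 0.0617%, with overlap (exact two-sided permutation p = 0.1429). Of the few tested markers of dendritic cells (4), natural killer cells (2), neutrophils (2) and red cells or platelets (8), 2 were called, both lower, S100a8 and Hba-a1. S100a8 was at 152 CPM in heterozygous library 3 and at most 4.01 CPM in any other library, and was not called with voom, nor without that library or any 1 of the homozygous libraries. Hba-a1, at 17.5, 16.3, 44.5 and 5.24 CPM against 2.36, 2.69, 1.46 and 2.65 CPM, was not called without heterozygous library 3 or homozygous library 3.

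The genotype difference was set beside that of the tdTomato-positive cells of the same genotypes, which are separate libraries. There 1099 genes (10.3%) were called, 541 (5.06%) higher and 558 (5.22%) lower. Of the genes called here, 538 were also called there, 48% of the tdTomato-negative and 49% of the tdTomato-positive calls, and 536 had the same direction. The difference between the 2 genotype effects was tested as an interaction, and 13 of 10687 genes (0.122%) passed, 5 (0.0468%) with a higher and 8 (0.0749%) with a lower effect in tdTomato-negative cells, while 992 had an unadjusted p under 0.05. DESeq2 called 194 and voom 7, and without any 1 of the 8 homozygous libraries of both sorts edgeR called 1. Lists are given by their values in both sorts, with no test of the list itself.

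Itgax had the smallest adjusted p for the difference. It was at 13.8, 9.24, 11.2 and 8.95 CPM in heterozygous and 10.5, 12.5, 11.4 and 20.1 CPM in homozygous tdTomato-positive cells. The groups overlapped there, whereas in tdTomato-negative cells the heterozygous libraries were at or near 0, and the difference of the log2 effects was 8.91 (SE 0.89, edgeR adjusted p = 7.4e-05). Plxnc1, a semaphorin receptor, was at 7.79, 14.1, 9.60 and 7.77 CPM against 49.0, 57.7, 53.0 and 66.5 CPM in tdTomato-negative cells, a log2 fold change of 2.52, against 0.04 in tdTomato-positive cells (difference 2.49, SE 0.46, edgeR adjusted p = 0.0401). The fall of Fcmr was deeper without reporter, -1.27 against -0.42 (difference -0.86, SE 0.15, edgeR adjusted p = 0.0368). The rise of Iglc1 was smaller, 1.92 against 2.95 (difference -1.02, SE 0.19, edgeR adjusted p = 0.0429). Of the 13 mitochondrial genes 2 passed for the difference. They were mt-Nd1 at -1.34 against 0.04 (difference -1.38, SE 0.25, edgeR adjusted p = 0.0401) and mt-Nd2 at -1.81 against 0.00 (difference -1.81, SE 0.33, edgeR adjusted p = 0.0401). Among all 13 genes of the mitochondrial genome, 11 fell here and 1 fell with reporter, a contrast of counts that was not itself tested. The neonatal Fc receptor Fcgrt (0.09 against 2.13), H2-DMb1 (-0.29 against 0.60) and Sptan1 (-0.33 against 1.00) were called only for the difference and in tdTomato-positive cells. The remaining genes were Igkv4-50, a kappa variable segment (-3.37 against 3.23), and E2f6, Fam83g and the clone RP23-94B13.4, whose rises in tdTomato-negative cells were not called with voom.

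**Figure D5:**
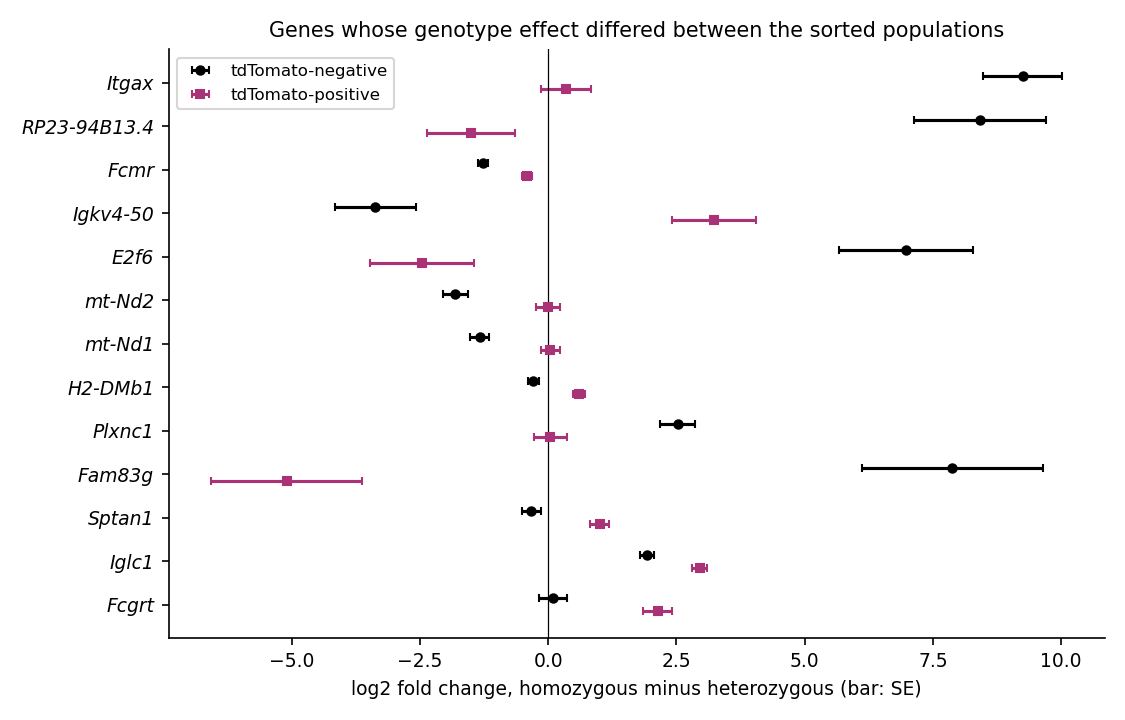
Log2 fold change, homozygous minus heterozygous, with SE, in tdTomato-negative (circles) and tdTomato-positive cells (squares) for the 13 genes whose genotype effect differed between the sorts in the interaction test. Itgax, Plxnc1, Fcmr, mt-Nd1 and mt-Nd2 changed in tdTomato-negative cells while their tdTomato-positive values lie nearer to 0, and Fcgrt, H2-DMb1 and Sptan1 show the reverse.

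The difference did not pass for the genes that follow, and both values are given for each, tdTomato-negative first. Cxcr3 was at 3.88 and 3.60, Tbx21 at 3.84 and 3.06, Ccr6 at 1.93 and 2.33, Gpr183 at 1.66 and 1.88, Bcl6 at -1.91 and -1.77, and Ighd at -4.97 and -5.27. Id2 was at 2.49 and 0.62 (edgeR adjusted p = 0.154 for the difference) and Bach2 at -1.23 and -0.26 (edgeR adjusted p = 0.268). The cell division lists had medians of -1.0 and -1.15 here and of -1.39 and -1.84 in tdTomato-positive cells. Ribosomal protein genes gave 33 of 78 higher here and 66 there. The T-bet and CD11c list gave 8 of 10 higher here and 4 there, with medians of 1.54 and 0.70.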

How the data were processed

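RNA was sequenced from 4 heterozygous and 4 homozygous tdTomato-negative libraries and from 8 tdTomato-positive libraries of the same genotypes. Reads were trimmed with Trim Galore, aligned with STAR 2.2.0 to mm10 and counted with featureCounts, per the submitters' processing notes. The authors deposited raw counts over coding sequence per gene, per the file headers, in 1 table per genotype. These counts, joined on gene symbol (22675 genes), were the only values used in the tests. The deposited tables also hold a score, values named by the authors as scaled to mapped reads, which in the heterozygous table exceed their nominal total per library, and the authors' log2 ratios between tdTomato-positive and tdTomato-negative cells, and both were left out. Counts per deposited mapped read were computed from the divisors behind the score columns. Of the joined genes 88.8% matched a gene of GENCODE mouse release M21 (GRCm38), which gave coordinates and coding lengths.

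The counts were analysed in R 4.3.3 with edgeR 4.0.16, with TMM scaling, filterByExpr and robust quasi-likelihood tests on group means of all 16 libraries, so that all groups share 1 estimate of the spread. p-values were adjusted by Benjamini-Hochberg over all tested genes at a threshold of 0.05. A standard error is the absolute log2 fold change divided by the square root of F. Folds against a group without counts use a floor of 3 counts over the group, and intervals (exact, 95%) and floors cover counting error only. Other fits used scaling by RLE or the upper quartile, a filter of 5 CPM in 4 libraries or none, DESeq2 1.42.0, limma 3.58.1 voom with sample weights, the replicate number as a block, the 8 libraries alone, and 1 library left out at a time. A correction for coding length and 2 fits of the 8 libraries alone, with DESeq2 and with the block, were added after seeing the data. Shares of counts (20) were compared by exact two-sided permutation over libraries, adjusted over the 20.

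In counts simulated for this comparison (10559 genes), edgeR recovered 39 of 100 genes changed 2-fold and 79 of 100 changed 4-fold. The changed genes were drawn only from genes above a minimum mean CPM, and recovery was not split by CPM. These rates therefore do not speak for weak genes. Of 132 calls 14 were false, a larger share than the threshold of 0.05 used for the calls.

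The members and the 39 gene lists were chosen with earlier results of these data known. Genes named are Zfp318, Ighd and Ighm, the 12 largest rises and falls as defined in the text, from each list up to 3 called members in each direction with the smallest p and up to 2 uncalled members with the highest CPM, the 5 genes with the smallest p for the difference between the sorts, and the most abundant markers of other cell types. A further 29 genes outside this rule, the variable segments, Bub1, Cd44, Cnr2, Ctss, Ezh2, Foxo1, Gcsam, H2-Aa, H2-Ab1, H2-Ob, Itga4, Neil1, Pcna, Plk1, Rrm1, Satb1, Tcf3, Tlr3, Xbp1, mt-Co1, mt-Cytb and the remaining genes of the difference test among them, were named after their values were seen.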

Additional observations from a re-analysis of the deposited data

Results flagged for a closer look

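Single libraries stood apart from the other 3 of their group in 26 of 342 groups of 4 tested (genes named above and shares), where chance gives about 1 in 20. Where the other 3 had no count, any count at all stands apart, so the measure cannot decide there. The 26 include such groups, so their number cannot be set against chance. Heterozygous library 1 was high for Iglc2 (11600 CPM) and for lambda variable segments (1.25% of counts). Its Spn value (0.111 CPM) stood against no count in the other 3 libraries. Library 2 was high for kappa variable segments (1.04% of counts). Library 3 was high for switched heavy chain counts (34.2%) and Eaf2 (142 CPM), and low for Inpp5d (86.3 CPM). Its Itgax (0.131 CPM) and E2f6 (0.0653 CPM) values stood against no count in the other 3 libraries. Library 4 was high for Cd79a (7030 CPM to 3 digits) and had no count for Adgre1 (0 CPM).

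Among homozygous libraries, library 1 was low for Bank1 (510 CPM), Cd38 (326 CPM), the share of G2/M genes (0.121% of counts) and the share of Ighv1-72 among heavy chain variable counts (82.8%), and high for Fbl (89.4 CPM) and the Ighd share of heavy chain constant counts (0.824%). Library 2 was low for Cdk4 (253 CPM) and high for E2f6 (6.55 CPM). Its Ighv1-42 value (0.234 CPM) stood against no count in the other homozygous libraries. Library 3 was low for Pcna (124 CPM) and high for the lambda 1 share (68.6%). Library 4 was high for Cd5 (6.38 CPM) and low for Satb1 (25.9 CPM) and Adgre1 (33.4 CPM). Its Trbc2 value (0.964 CPM) likewise stood against no count in the other homozygous libraries.

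The genotype effect differed between tdTomato-negative and tdTomato-positive cells for 13 genes in the interaction test of edgeR. The differences of the log2 effects were 8.91 for Itgax, 9.93 for RP23-94B13.4, 9.44 for E2f6, 12.98 for Fam83g and 2.49 for Plxnc1. They were -0.86 for Fcmr, -6.61 for Igkv4-50, -1.81 for mt-Nd2, -1.38 for mt-Nd1, -0.89 for H2-DMb1, -1.33 for Sptan1, -1.02 for Iglc1 and -2.04 for Fcgrt.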

How the results depend on the processing

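The genotype effect in tdTomato-negative cells gave 1121 calls with edgeR over 16 libraries and 724 in the 8 libraries alone, where DESeq2 gave 1580 and 1352. With edgeR there were 608 to 1280 with single libraries left out of the 16, and, with single libraries left out of the 8, 330, 238, 240 and 247 without homozygous and 894 to 1086 without heterozygous libraries. The numbers did not pair the libraries (correlations of -0.005 to 0.018 between same-numbered libraries, the best partner only for number 4). A replicate block gave 980 calls over 16 libraries, 269 in the 8 alone and 1 for the difference between the sorts, which had 13. That difference gave 194 calls with DESeq2, 7 with voom and 1 to 41 with single libraries left out. The tdTomato-positive comparison gave 1099 calls, and 722 to 1120 with single libraries left out. Upper quartile scaling put 63.5% of calls higher, against 53.5%, voom 43.0% and the correction for coding length 32.8%. The median over all genes was 0.00, and 0.09, 0.33 and -0.18 in these fits, so small changes in either direction are relative to it.

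Of 125 called genes named above none changed sign in any of these fits. In every fit that kept all libraries 84 stayed past the threshold, 117 did so with each library left out of the 16-library fit, and 75 with each left out of the 8-library fit. The block in the 8 libraries alone ended 35 of the calls, the 8-library edgeR fit 5, voom 7, the correction for coding length 3, and DESeq2 and RLE scaling none. Of genes that were not called, Ighg2c turned from -0.89 (-1.29 without heterozygous library 1) to 4.55, or 4.53 in the 8 libraries alone, without heterozygous library 3, and Iglc2 to 0.46 without heterozygous library 1 in the 8 alone. Exact permutation of 4 against 4 libraries cannot go below p = 0.0286. Total counts did not order the share of genes without a count, since 3 of the 4 heterozygous libraries had larger totals than any homozygous one. These totals are no measure of mapped reads, as counts per deposited mapped read were 1.345 to 1.445 in heterozygous and 0.3688 to 0.4191 in homozygous libraries. The part of sequencing depth in that share was not tested. Where a group had no count, the fold is limited by the floor of 3 counts.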
